A study of Mus musculus with 2 samples.

Results

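Heat shock proteins and their J-domain partners were compared between a SOX2 KO and a WT control culture of squamous organoids. The set was chosen by gene symbol and comprised the HSP70, HSP110, HSP90, small HSP and HSP60/HSP10 genes, the Dnaja, Dnajb and Dnajc genes, the heat shock factor genes Hsf1 and Hsf2, and 7 cofactor genes. It held 78 of the 29456 genes with a probe set annotated to them alone, and 67 of the 78 reached the floor, which was the median log2 signal of all genes (3.3) on at least 1 array. Of the 78, 77 were protein-coding and 1, Dnajc19-ps, was a pseudogene. The organoids were grown in Matrigel from mouse forestomach, the squamous-lined upper stomach of rodents. SOX2 KO organoids derived from Krt5CreER/+ Sox2Δ/Δ ROSA26tdTomato/+ mice, in which a tamoxifen-dependent Cre under the Krt5 promoter removes Sox2 from squamous cells and turns on the tdTomato reporter. WT control organoids derived from wildtype mice, and in the study the control animals lack the Cre allele. Each group was 1 culture on 1 Affymetrix Mouse Gene 2.0 ST array, with the age and sex of the source mice not given in the sources used here. A further 4 genes, Hspa1b, Dnaja1, Dnajb6 and Dnajc1, had only a probe set shared with another gene and are not among the 78. Whether a culture came from 1 mouse or several is not stated. Genotype, Cre, tamoxifen exposure, mouse, passage and array therefore cannot be told apart. In the absence of replicates the differences carry neither an error nor a p-value.

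Chaperones bind unfolded or partly folded proteins and keep them from aggregating. HSP70 proteins do this in cycles of ATP hydrolysis. J-domain proteins deliver the clients and trigger hydrolysis, and HSP110 and BAG proteins release the bound nucleotide. HSP90 acts later on kinases, receptors and other near-native clients, and small HSPs hold unfolded chains without ATP. Heat shock factor 1 (HSF1) raises many of the cytosolic genes under protein stress by binding heat shock elements, which are inverted repeats of GAA and TTC. The endoplasmic reticulum (ER) and the mitochondria have their own HSP70 and J-domain proteins, and the ER set is under the unfolded protein response. In stratified epithelia small HSPs are known to accompany keratinocyte differentiation.

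The promoter sequences below show the elements through which several of these genes are known to be controlled, beside which their differences can be read. They are RefSeq sequences on GRCm38.p6 (mm10), given 5′ to 3′ on the strand of the gene. Windows of 250 bases before to 50 bases after a start site were present for 62 of the 78 genes. The first 3 stretches hold matches to a heat shock element of 3 units, with the matching bases in capitals. It was searched as GAA, TTC and GAA with any 2 bases between neighbouring units on both strands. Overlapping matches form a longer run in Chordc1, from -4 to 19 relative to the start site, and in Hspe1, from -89 to -72. The stretches are from Hsph1 (chr5:149636277-149636306, minus strand), Chordc1 (chr9:18292263-18292292, plus strand) and Hspe1 (chr1:55088055-55088084, plus strand).
Hsph1: tgcagaTTCTGGAAAGTTCtcctcagtagg
Chordc1: GAACGTTCGGGAAAATTCCTGAAgcagtac
Hspe1: tccgTTCTAGAACCTTCCGGAAggccccgc

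This element was found in 0.662% of the 27025 genes with a window and in 4 of the 62 chaperone genes, which were Hsph1, Chordc1, Hspe1 and Hspd1. The 2 overlapping matches of Hspe1 form a run of 18 bases (chr1:55088059-55088076) that it shares with Hspd1, since these neighbours are transcribed away from each other. Hspa1a (chr17:34972227-34972286, minus strand) and Hspb1 (chr5:135887789-135887848, plus strand) held only the shorter form of 2 units, GAANNTTC, which reads the same on both strands, lies inside every 3-unit match, and occurred in 9.04% of genes and in 13 of the 62 chaperone genes. The other order of the 2 units, TTCNNGAA, also lies inside every 3-unit match. That order occurred in 9.6% of genes and in 6 of the 62 chaperone genes, of which Dnajb4 and Dnajc10 have no 3-unit match. GAANNTTC is in capitals here.
Hspa1a: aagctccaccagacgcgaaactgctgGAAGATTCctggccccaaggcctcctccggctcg
Hspb1: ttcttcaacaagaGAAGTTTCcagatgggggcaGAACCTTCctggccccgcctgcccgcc

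The ER stress element, searched as CCAAT and CCACG with any 9 bases between them on both strands, was found in 0.137% of genes and in 3 of the 62 chaperone genes. These were Dnajc3 (chr14:118937807-118937866, plus strand), Hspa5 (chr2:34772005-34772064, plus strand) and Hsp90b1 (chr10:86705512-86705571, minus strand), with the element in capitals. Hsp90b1 held 2 matches, of which 1 is shown.
Dnajc3: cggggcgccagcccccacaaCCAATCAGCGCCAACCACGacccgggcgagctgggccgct
Hspa5: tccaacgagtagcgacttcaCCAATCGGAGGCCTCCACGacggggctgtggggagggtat
Hsp90b1: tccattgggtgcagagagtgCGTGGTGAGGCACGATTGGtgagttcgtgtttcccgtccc

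As a check of the labels, the Sox2 signal was 2.53 in SOX2 KO and 5.74 in WT control. All signals are log2 array values as deposited, and all differences are SOX2 KO minus WT control on that scale. The levels of different genes are not set against each other, since probe sets differ in brightness. The exception is the summed linear signal of cell type lists, which weighs bright probe sets most and includes genes below the floor. Background was approximated by olfactory receptor genes, of whose values 95% lay below 3.84. Where the dimmer array lay below that level, the level replaced its value and the fold is a lower bound, written "at least". Of the 78 genes, 46 lay above it on both arrays, 26 below it on both and 6 on 1 array only. The squamous identity of the cultures was visible in Krt5 (8.71 in SOX2 KO and 8.86 in WT control), Krt14 (8.19 in SOX2 KO and 8.16 in WT control) and Trp63 (6.31 in SOX2 KO and 6.44 in WT control). Of the 6 basal markers, 4 were higher and 2 lower in SOX2 KO, the most different being Krt15 (8.73 in SOX2 KO and 7.50 in WT control).

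Chaperone genes differed little between the cultures. None of the 67 genes above the floor differed by 2-fold, against 2.01% of all 15983 genes passing it that were higher by that much in SOX2 KO and 0.795% that were lower. At 1.5-fold, 2 chaperone genes (2.99%) were higher in SOX2 KO, against 6.45% of all genes, and 3 (4.48%) were lower, against 4.43% of all genes. The 2 higher genes were Hsph1 and Hspb7, and the 3 lower genes were Chordc1, Hspa9 and Dnajc30. Of these 5, the bound against background stayed under 1.5-fold for Hspb7 and Dnajc30. To any extent 32 were higher, 31 lower and 4 equal, against 7639, 7889 and 455 of all 15983 genes. The median difference was 0.00 for the 67 chaperone genes and 0.00 for all genes. Of the 67, 47 lay within 0.3 of zero, a count not made for all genes. The SD of the differences across genes was 0.314 for the 67 and 0.409 for all genes above the floor. Just past the 1.5-fold limit, which is 0.585 on the log2 scale, was Hspa9 (-0.61), and just short of it were Dnajc3 (0.56), Dnajc10 (-0.56), Hspa1a (0.54) and Hspa4l (0.53).

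**Figure D1:**
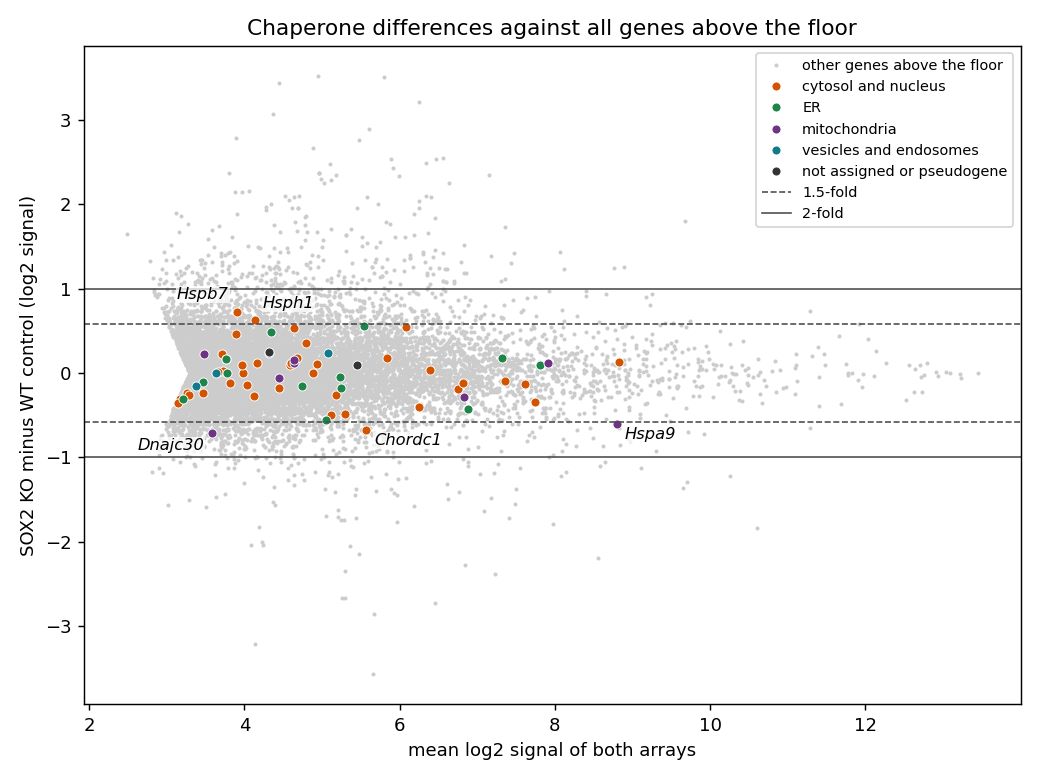
Difference (SOX2 KO minus WT control, log2 signal) against the mean log2 signal of both arrays for the 67 chaperone genes above the floor, coloured by compartment, over all other genes above the floor in grey. Dashed lines mark 1.5-fold and solid lines 2-fold. The 5 named genes lie past 1.5-fold and no chaperone gene reaches 2-fold.

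In the cytosol and nucleus, 40 of 48 genes passed the floor, with 19 higher, 19 lower and 2 equal in SOX2 KO, and a median of 0.00. Past 1.5-fold, 2 were higher, against 6.45% of all genes, and 1 was lower, against 4.43%. Within this group the inducible HSP70 gene and most HSP110 genes were on the higher side. Hspa1a, the stress-inducible HSP70 (probe set at chromosome 17, 34969199 to 34972156, mm10), was 6.35 in SOX2 KO and 5.81 in WT control, a difference of 0.54. A probe set annotated to both Hspa1b and Hspa1a was 7.84 in SOX2 KO and 7.12 in WT control, a difference of 0.72. Hspa1b is a near-identical copy of Hspa1a, the promoter windows of the pair match at 296 of 300 bases, and their signals may not be separable. Hspa1l, which lies beside them, was below the floor at 2.43 in SOX2 KO and 2.34 in WT control.

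Hsph1, an HSP110 that exchanges the nucleotide of HSP70, was 4.45 in SOX2 KO and 3.82 in WT control, a difference of 0.63 and at least 1.52-fold higher against the background level. Hspa4l, a second HSP110, was 4.90 in SOX2 KO and 4.37 in WT control. The third, Hspa4, went the other way by a small amount, with 7.31 in SOX2 KO and 7.41 in WT control. The constitutive HSP70 gene Hspa8, which serves folding and clathrin uncoating in unstressed cells, was 8.89 in SOX2 KO and 8.76 in WT control. The 4 remaining cytosolic HSP70 genes above the floor, Hspa14, Hspa2, Hspa12a and Hspa12b, ran from -0.24 to 0.23 and lay near background.

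Both cytosolic HSP90 genes were slightly lower in SOX2 KO. The inducible form Hsp90aa1 was 6.66 in SOX2 KO and 6.85 in WT control, and the constitutive form Hsp90ab1 was 7.55 in SOX2 KO and 7.68 in WT control. Among the cofactors, Chordc1, a CHORD-domain partner of HSP90 and SGT1, was 5.23 in SOX2 KO and 5.91 in WT control, 1.60-fold lower. Bag3, which couples HSP70 to small HSPs and selective autophagy, was 5.05 in SOX2 KO and 5.54 in WT control. The other 5 cofactors differed by less: Stip1, the adaptor that bridges HSP70 and HSP90, was 6.40 in SOX2 KO and 6.37 in WT control, the HSP90 ATPase activator Ahsa1 differed by -0.18, and Bag1, Bag2 and Hspbp1 by 0.18, 0.09 and 0.11. The heat shock factors themselves differed little, with 4.77 in SOX2 KO and 4.59 in WT control for Hsf1, while Hsf2 was below the background level in both cultures (3.02 in SOX2 KO and 3.33 in WT control). Of the other factor genes, Hsf4 was 3.73 in both and Hsf5 was below the floor.

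Small HSPs were mixed. Hspb1 (HSP25 of mouse), the main small HSP of keratinocytes, was 6.05 in SOX2 KO and 6.45 in WT control, a difference of -0.40. Hspb7, a small HSP of heart and other muscle, was 4.26 in SOX2 KO and 3.54 in WT control, a difference of 0.72 as measured and at least 1.33-fold higher against the background level. Hspb6, abundant in smooth and striated muscle, was 4.98 in SOX2 KO and 4.62 in WT control. Hspb8, the partner of Bag3, differed by -0.24 with both values below background, as did the muscle gene Hspb3 by -0.35, and Hspb2 by 0.16. The testis gene Hspb9, above background, differed by -0.27. Hspb11, which is the intraflagellar transport subunit IFT25, was 4.89 in both. The alpha crystallins, small HSPs of the lens and of muscle, lay below background in both cultures, with Cryaa at 3.04 in SOX2 KO and 3.49 in WT control and Cryab at 2.98 in SOX2 KO and 2.33 in WT control. Of 7 testis and germ cell markers, 1 passed the floor (Prm2, 5.44 in SOX2 KO and 5.51 in WT control).

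Most smooth muscle markers were higher in SOX2 KO, as Hspb7 and Hspb6 were, while the muscle gene Hspb3 was lower (-0.35, below background). Of 10 such markers, 9 passed the floor, 8 were higher and 1 lower, 6 of them past 1.5-fold as measured, against 6.45% of all genes, although only 3 of the 9 lay above background on both arrays. The summed linear signal of the list was 358.8 in SOX2 KO and 123.5 in WT control. Acta2 was 7.05 in SOX2 KO and 4.16 in WT control, Myh11 was 6.26 in SOX2 KO and 3.97 in WT control, and Des was 4.25 in SOX2 KO and 3.60 in WT control, at least 1.33-fold higher. Of 8 striated muscle markers, 5 passed the floor, 3 higher and 2 lower, and the list summed to 139.2 in SOX2 KO and 127.1 in WT control. Tnnt2 was 5.88 in SOX2 KO and 5.32 in WT control, Acta1 was at least 1.31-fold higher, Myl2 differed by 0.12, Ckm by -0.45 and Myh7 by -0.31, and Actc1, Myh6 and Ttn were below the floor. In whole cultures a larger number of muscle-like cells and more RNA per cell cannot be told apart, and the part of these markers in the Hspb7 and Hspb6 values was not tested.

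Cytosolic J-domain proteins, which choose the clients of HSP70, had a median of -0.06 over 12 genes that passed the floor, of 19. None passed 1.5-fold. Dnajb1, the main HSF1-responsive HSP40, was 4.63 in SOX2 KO and 4.54 in WT control, a difference of 0.09 where those of Hspa1a and Hsph1 were 0.54 and 0.63. Dnajb4, a close relative of Dnajb1, was 4.12 in SOX2 KO and 3.66 in WT control, at least 1.21-fold higher. Dnaja2 was 7.58 in SOX2 KO and 7.92 in WT control, and Dnaja4 differed by -0.14. Dnajc21, which acts in ribosome biogenesis, was 4.86 in SOX2 KO and 5.36 in WT control. Its ribosome-bound relative Dnajc2 differed by -0.12 and the HSP90-binding co-chaperone Dnajc7 by -0.26. The histone chaperone Dnajc9 and the spliceosomal Dnajc8 each differed by 0.12, Dnajb5 by 0.00, and Dnajc24 and Dnajc12, both below background, by 0.01 and -0.26. Dnajb2, Dnajb3, Dnajb7, Dnajb8, Dnajb13, Dnajc17 and Dnajc27 were below the floor.

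**Figure D2:**
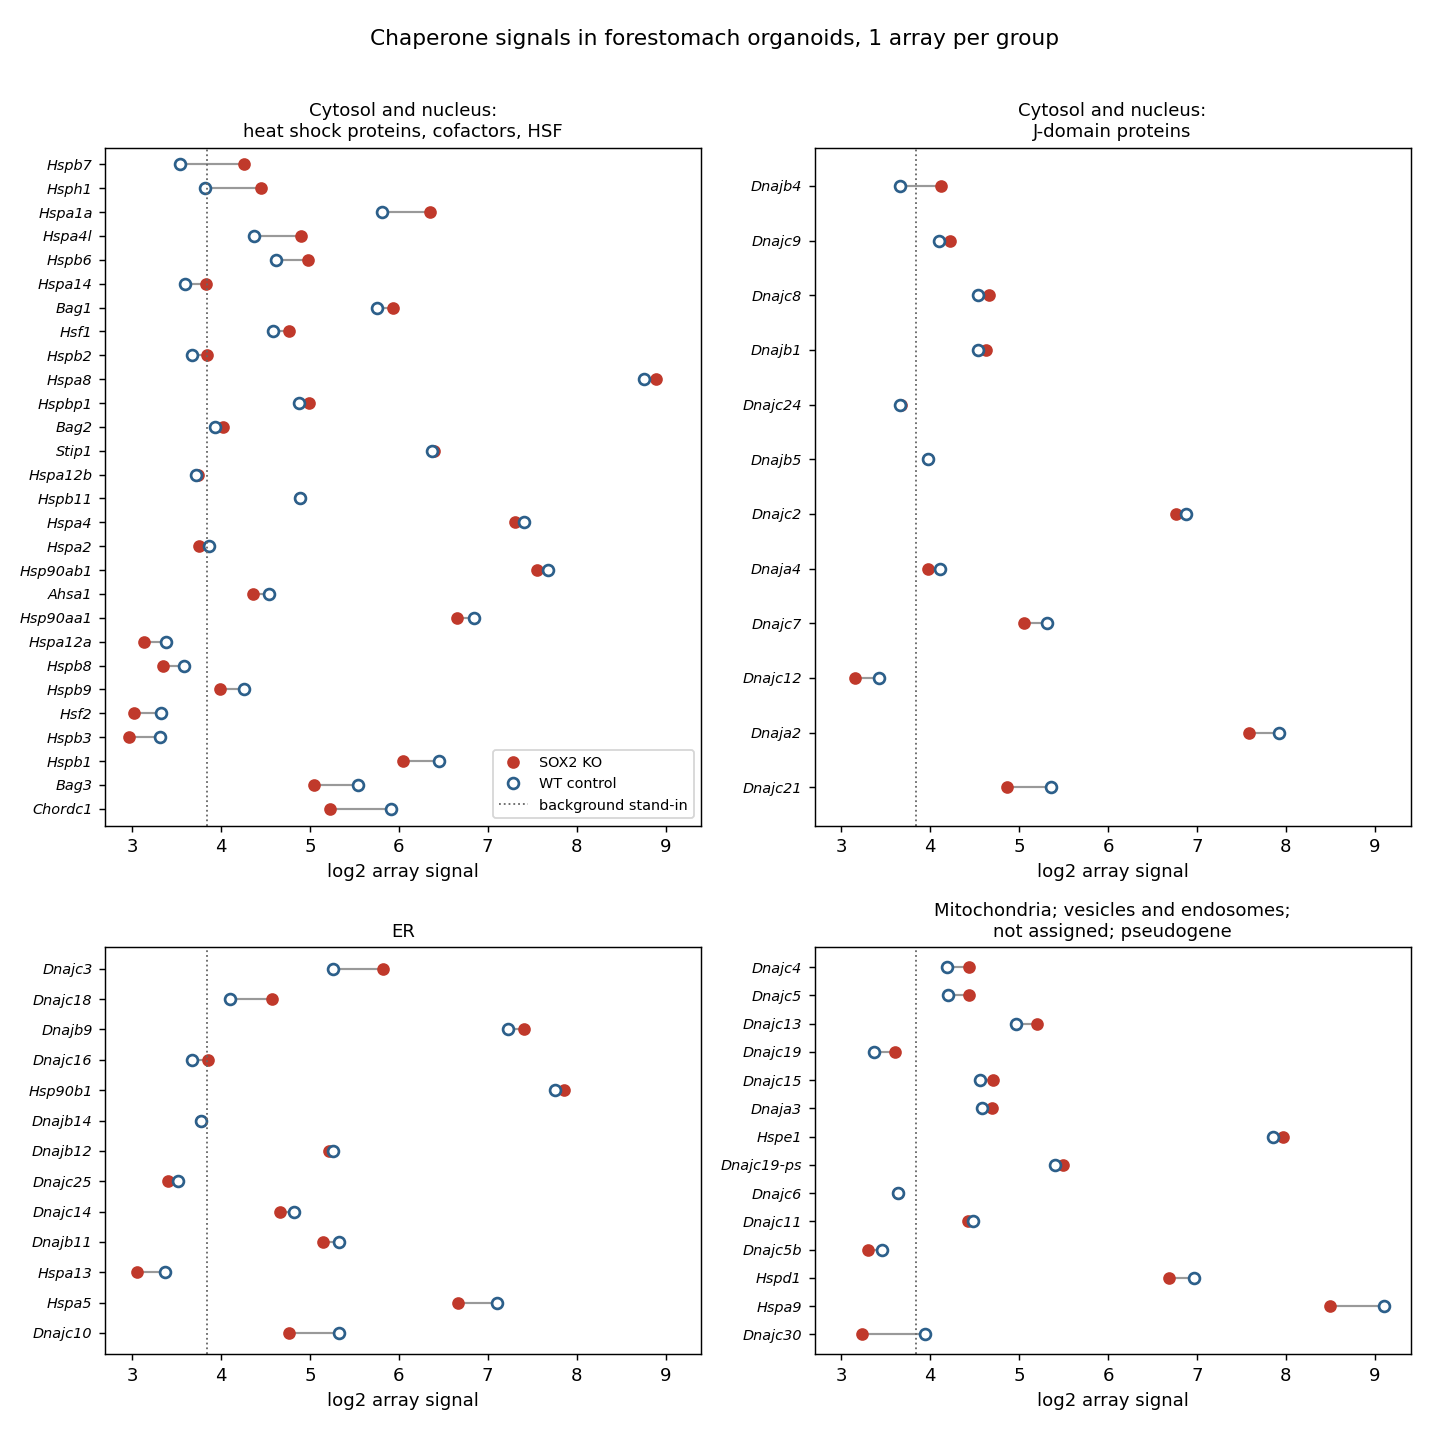
Log2 array signal of each of the 67 chaperone genes above the floor in SOX2 KO (filled red) and WT control (open blue), 1 array each, ordered within panels by difference. The dotted line is the background level of 3.84. Hspb7, Hsph1 and Hspa1a stand at the top of the first panel and Chordc1, Bag3 and Hspb1 at its foot.

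The classical HSF1 targets split in direction. Of 14 genes on that list, 12 had a probe set of their own, and 6 were higher and 6 lower in SOX2 KO, with a median of -0.075. Past 1.5-fold, 1 was higher (Hsph1), against 6.45% of all genes, and 1 lower (Chordc1), against 4.43%. The 4 genes with the 3-unit heat shock element are all on this list and stood at 0.63 for Hsph1, 0.12 for Hspe1, -0.29 for Hspd1 and -0.68 for Chordc1. The 3 genes of the list with only the 2-unit form stood at 0.54 for Hspa1a, -0.40 for Hspb1 and -0.49 for Bag3. The remaining genes of the list with a probe set of their own had either no match or no window. They cannot be said to lack an element. Dnaja1, which shares its probe set with a microRNA gene, was 5.87 in SOX2 KO and 5.70 in WT control. Immediate early genes, which are quickly induced by handling and growth factor stimuli, were on the lower side beside this list. All 9 above the floor were lower in SOX2 KO with a median of -0.58, and 6 of the 9 lay above background on both arrays. Past 1.5-fold as measured were 4, against 4.43% of all genes, among them Egr1 at 3.71 in SOX2 KO and 5.06 in WT control, at least 2.32-fold lower, and Fos, at least 1.08-fold lower. Their part in the chaperone values was not tested.

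**Figure D3:**
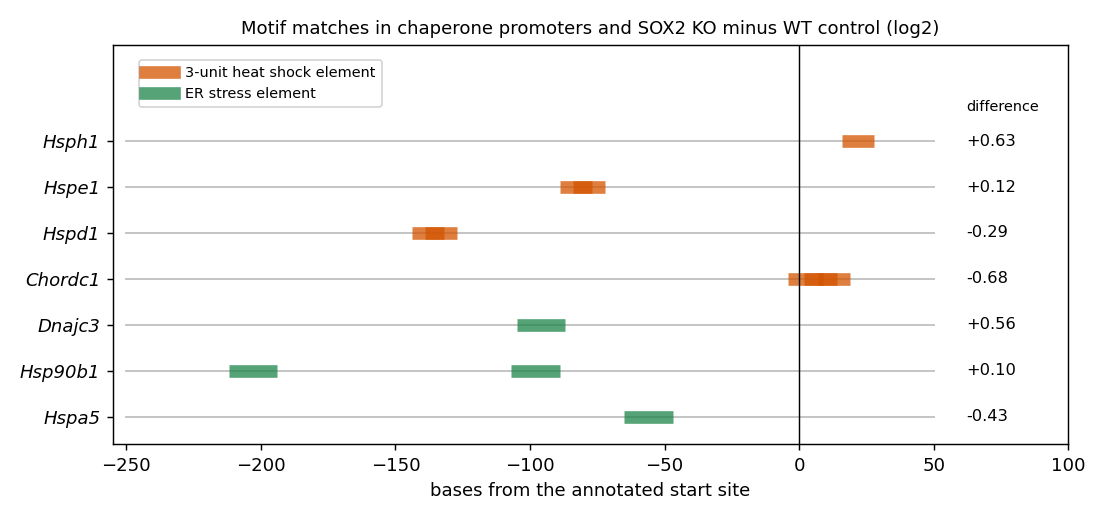
Positions of 3-unit heat shock elements (orange) and ER stress elements (green) in bases from the annotated start site, in the window of 250 bases before to 50 after, for the chaperone genes that hold them. Hsph1 and Hspd1 each have 2 such windows, for different start sites, and only a window with a match is drawn. Numbers on the right are SOX2 KO minus WT control (log2 signal), which have both signs for either element, from -0.68 for Chordc1 to 0.63 for Hsph1.

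In the ER, 13 of 14 genes passed the floor, with 5 higher, 7 lower and 1 equal in SOX2 KO, and a median of -0.05. Past 1.5-fold, 0 were higher, against 6.45% of all genes, and 0 lower, against 4.43%. Hspa5 (BiP), the HSP70 of the ER and a standard readout of the unfolded protein response, was 6.67 in SOX2 KO and 7.10 in WT control, 1.35-fold lower. Hsp90b1 (GRP94), the ER HSP90, was 7.86 in SOX2 KO and 7.76 in WT control. The BiP cochaperones were divided. Dnajc3 (p58IPK), which also inhibits the kinase PERK, was 5.82 in SOX2 KO and 5.26 in WT control, a difference of 0.56, and Dnajb9 (ERdj4), which serves degradation of misfolded proteins, was 7.41 in SOX2 KO and 7.23 in WT control. Dnajc10 (ERdj5), a disulfide reductase, was 4.77 in SOX2 KO and 5.33 in WT control, a difference of -0.56, and Dnajb11 (ERdj3) was 5.15 in SOX2 KO and 5.33 in WT control. The 6 ER stress genes of the set, Hspa5, Hsp90b1, Dnajb9, Dnajb11, Dnajc3 and Dnajc10, were split 3 and 3 with a median of -0.04. The 3 genes with the ER stress element, Dnajc3, Hsp90b1 and Hspa5, thus stood at 0.56, 0.10 and -0.43. Of the J-domain proteins anchored in the ER membrane, Dnajc18 was 4.58 in SOX2 KO and 4.10 in WT control, while Dnajb12, Dnajb14, Dnajc14, Dnajc16 and Dnajc25 ran from -0.16 to 0.17. Hspa13, an ER-associated HSP70, was below background in both cultures (3.06 in SOX2 KO and 3.37 in WT control), and Dnajc22 was below the floor.

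Among 20 other unfolded protein response genes above the floor, 6 were higher and 14 lower, with a median of -0.045. Of the 20, 1 was lower past 1.5-fold, against 4.43% of all genes. That gene was Atf4, the transcription factor translated when PERK is active, at 6.57 in SOX2 KO and 7.45 in WT control. Ddit3 (CHOP), a target of ATF4, was 5.69 in SOX2 KO and 6.27 in WT control. Xbp1, the factor spliced by IRE1, was 3.85 in SOX2 KO and 4.23 in WT control. The IRE1 gene Ern1 had the largest positive difference, 0.20. The ER lectins Canx and Calr and the oxidoreductase Pdia3 differed by 0.12, -0.02 and 0.01.

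In the mitochondria all 8 genes passed the floor, with 4 higher and 4 lower in SOX2 KO, a median of 0.03 and a mean of -0.131. Past 1.5-fold as measured, 0 were higher, against 6.45% of all genes, and 2 were lower (Hspa9 and Dnajc30), against 4.43%. Hspa9 (mortalin), the matrix HSP70 that pulls in and folds imported proteins, was 8.49 in SOX2 KO and 9.10 in WT control, 1.53-fold lower. Its J-domain partner Dnaja3 was 4.70 in SOX2 KO and 4.58 in WT control on the chosen probe set, and the other 2 Dnaja3 probe sets differed by -0.03 and -0.54 below background. The HSP60 gene Hspd1 was 6.68 in SOX2 KO and 6.97 in WT control. The gene of its HSP10 lid, Hspe1, which shares the heat shock element printed above, was 7.97 in SOX2 KO and 7.85 in WT control. Dnajc30, which acts on the respiratory chain and ATP synthase, was 3.23 in SOX2 KO and 3.94 in WT control, a difference of -0.71 as measured and at least 1.07-fold lower against the background level. The import motor subunits Dnajc19 (below background) and Dnajc15 differed by 0.23 and 0.15, and Dnajc11 by -0.06. Of 8 other mitochondrial proteostasis genes above the floor, 4 were higher and 4 lower, with a median of 0.00. Of these, 0 were past 1.5-fold, against 6.45% of all genes higher and 4.43% lower. The matrix protease Lonp1 had the most negative difference, with 3.52 in SOX2 KO and 3.98 in WT control, and the import receptor Tomm70a the most positive, with 6.89 in SOX2 KO and 6.67 in WT control. The HSP90 homologue Trap1 was 4.79 in SOX2 KO and 4.60 in WT control.

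The J-domain proteins of vesicles and endosomes and those with no compartment assigned differed by at most 0.25. Dnajc5 (cysteine string protein) was 4.44 in SOX2 KO and 4.20 in WT control, and the endosomal Dnajc13 was 5.20 in SOX2 KO and 4.96 in WT control. The auxilin gene Dnajc6 was 3.64 in both, Dnajc5b differed by -0.16 near background, and Dnajc5g was below the floor. Dnajc4 was 4.44 in SOX2 KO and 4.19 in WT control, Dnajc28 was below the floor, and the pseudogene Dnajc19-ps was 5.49 in SOX2 KO and 5.40 in WT control. Over all compartments 32 of 42 J-domain genes passed the floor, and their median was 0.00, with 15 higher, 14 lower and 3 equal.

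Chaperone systems outside the set had medians between -0.175 and 0.02. All 8 subunits of the cytosolic chaperonin CCT, which folds actin and tubulin, had a negative difference, with a median of -0.175. They ran from -0.36 for Cct6a (7.41 in SOX2 KO and 7.77 in WT control) to -0.01 for Cct5. None was past 1.5-fold, against 6.45% of all genes higher and 4.43% lower. After centring each array on its median Cct5 was at 0.00 and 7 of the 8 stayed negative. Prefoldin, which hands clients to CCT, was split 3 and 3, with Pfdn4 at 0.54 and Pfdn1 at -0.46. Among 11 other HSP90 and HSP70 cofactors above the floor, 4 were higher and 7 lower with a median of -0.10. Of these 11, 2 were lower past 1.5-fold, against 4.43% of all genes, with differences of -0.70 for Ptges3 (p23) and -0.61 for Cdc37, the kinase adaptor of HSP90, while Bag6 was at 0.40. Sugt1 (SGT1) was 4.91 in SOX2 KO and 5.46 in WT control, and the HSP90 cochaperones Ppid, Tomm34, Unc45a and Fkbp4 differed by 0.15, 0.09, -0.06 and -0.15. The J-domain genes Sec63, Gak and Hscb, which carry other names, differed by -0.10, 0.11 and -0.03.

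**Figure D4:**
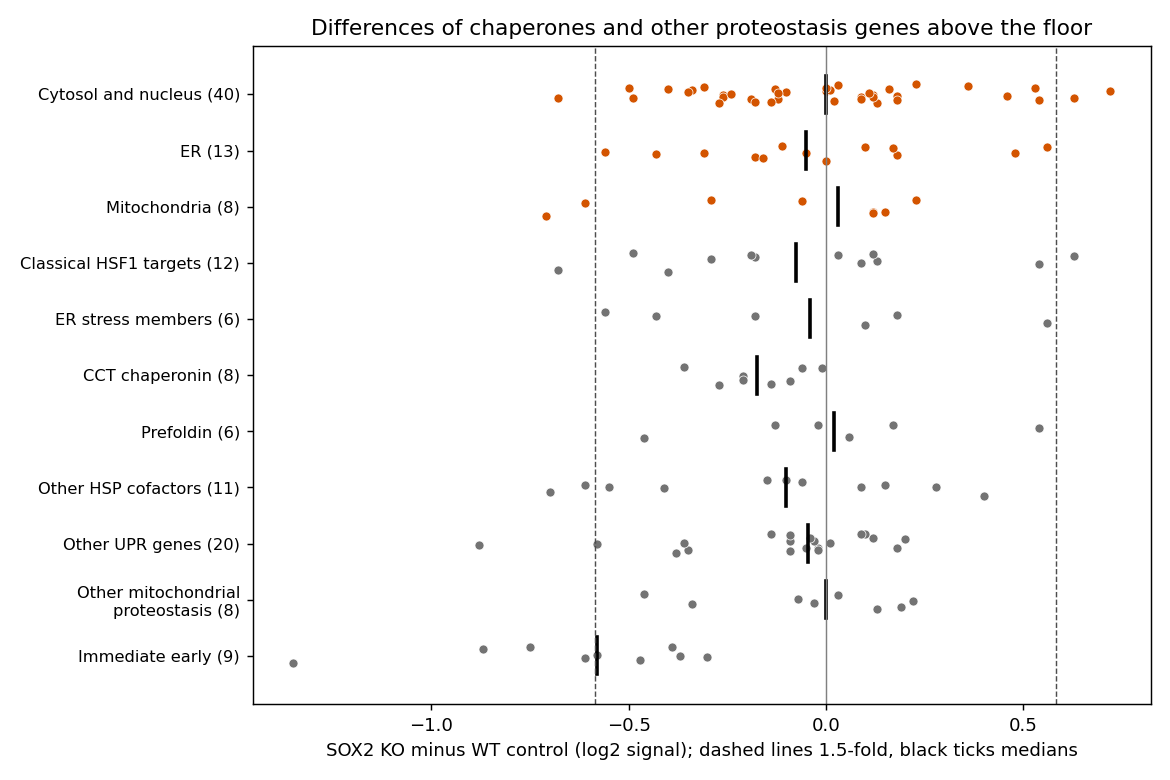
Differences (SOX2 KO minus WT control, log2 signal) of the chaperone genes above the floor in the cytosol and nucleus, the ER and the mitochondria (orange) and of lists of related genes (grey), 1 point per gene, with the number of genes in brackets, the median as a black tick and 1.5-fold as dashed lines. The 3 compartments drawn have medians between -0.05 and 0.03, all 8 CCT subunits lie below zero (7 after median centring, with Cct5 at 0.00), and the immediate early genes have the lowest median, -0.58.

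Low signal limits part of the set, and a view on brighter genes, chosen after the data were seen, gave a slightly lower centre. The 26 chaperone genes with a mean signal of 5 or more had a median of -0.125, where the 3937 genes of that brightness had one of 0.02. Past 1.5-fold, 0 of the 26 were higher in SOX2 KO, against 8.43% of all genes of that brightness, and 2, Chordc1 and Hspa9, were lower, against 6.05%. Past 2-fold, 0 were higher, against 3.07%, and 0 lower, against 1.83%. Of 8 fibroblast markers, 6 passed the floor, 4 higher and 2 lower, with a summed linear signal of 144.6 in SOX2 KO and 83.5 in WT control, and 1 of the 6 lay above background on both arrays. Of 8 leukocyte markers, 3 passed the floor, 2 higher and 1 lower, and the list summed to 236.5 in SOX2 KO and 197.8 in WT control. Most of that sum was Cd68 (7.39 in SOX2 KO and 7.18 in WT control), while Ptprc, Adgre1, Itgam, Cd3e and Cd79a were below the floor. The gene with the largest measured difference was Dcn for fibroblasts (5.90 in SOX2 KO and 2.83 in WT control, at least 4.16-fold higher) and for leukocytes Lyz2 of myeloid cells, below background in WT control and at least 1.62-fold higher in SOX2 KO. Of 8 squamous differentiation markers, all above background on both arrays, 4 were higher and 4 lower in SOX2 KO. Past 2-fold, 3 were higher, against 2.01% of all genes, and 3 lower, against 0.795%. The list summed to 1491.0 in SOX2 KO and 2949.2 in WT control. Among them, Krt13 was 8.97 in SOX2 KO and 10.33 in WT control, and Krt10 was 7.86 in SOX2 KO and 4.65 in WT control. The part of such shifts in cell make-up in the chaperone values was not tested.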

How the data were processed

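Total RNA of 2 forestomach organoid cultures, SOX2 KO and WT control, was hybridized to Mouse Gene 2.0 ST arrays. Normalization by the authors used Transcriptome Analysis Console, its version and summarization not given in the sources used here, and the values they deposited are log2 signals per probe set with 2 decimals. The columns of fold change, p-value and FDR p-value of the authors' own comparison were not used. Between the log2 columns and the value table of the series, 0 rows differed. The number of arrays, 1 per group, limits the precision.

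Of 34472 probe sets, 29971 had 1 gene symbol, 1902 several and 2599 none. Only those with 1 symbol stood for genes, and the brightest was used where a gene had several (383 genes). Arrays were grouped by the labelled genotype, and a difference is SOX2 KO minus WT control. Members and lists were chosen with earlier results of these data known. The naming rule took Sox2, members past 1.5-fold, the brightest 4 of each compartment, all classical HSF1 targets and ER stress genes, the largest difference each way of other proteostasis lists, and the brightest and most different gene of each cell type list. Members and list genes beyond this rule were named after their values were seen. A heat shock element or ER stress element was a match of the printed letters on either strand of a RefSeq window.

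Alternatives were median centring, quantile and loess scaling (span 0.3), other floors, the mean of probe sets, the series value table, a 3-fold threshold and means instead of medians. Counting at 2-fold was tested on simulated data with planted differences larger than that of any chaperone gene. It does not test the counts at 1.5-fold. Python 3.11.15, numpy 2.4.6, pandas 2.3.3 and statsmodels 0.14.6 were used.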

Additional observations from a re-analysis of the deposited data

Results flagged for a closer look

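A signal outside the compared probe sets came from the probe set annotated to both Hspa1b and Hspa1a (chromosome 17, 34956429 to 34959238). It was 7.84 in SOX2 KO and 7.12 in WT control, and its difference of 0.72, or 1.65-fold, is past 1.5-fold. This difference may not be separable from that of the Hspa1a probe set among the compared genes, 0.54. The other probe sets that chaperone genes share with another gene differed by less: 0.27 for Dnajc1 with Gm39761, 0.17 for Dnaja1 with Mir207, -0.16 for Dnajb6 with Gm36151, -0.24 for Vasn with Dnaja3 and -0.26 for Snord14e with Hspa8.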

How the results depend on the processing

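No paired analysis was possible because SOX2 KO and WT control had 1 array each, and none could be left out. The series value table is identical and tests nothing. With no replicates, a gene counted as moved past 0.262, the SD of differences among 1127 olfactory receptor genes, a list median past 0.1 and a count past 1.5 times. Of the alternative values, 110 for genes, 193 for list medians and 45 for counts stayed within these limits, while 22 list medians and 3 counts moved. The mean of probe sets, like the series value table, left each of the genes followed at its reported value. For those genes neither setting is a test. Median centring shifted all differences by 0.01, which is under the limit for a gene. The totals above include these settings, and removal of the pseudogene for lists without it. They therefore overstate how many values could have moved and are no measure of stability. Sox2 ran from -3.25 to -3.20 and Hspa9 from -0.61 to -0.60. Dnajc10 passed 1.5-fold after quantile scaling (-0.61), and Stip1 changed sign (-0.04). At 3-fold, 0 chaperone genes were higher and 0 lower, as the threshold requires. With a mean signal of 5 or more, chosen after the data were seen, 0 were higher past 1.5-fold, and the medians were -0.125 for all members, -0.16 for the cytosol and nucleus, -0.29 for mitochondria, 0.24 for vesicles and endosomes, -0.19 for classical HSF1 targets, 2.59 for smooth muscle, 0.56 for striated muscle, -0.97 for squamous differentiation and -0.44 for immediate early genes. With the mean in place of the median, values were -0.131 for mitochondria, 1.11 for smooth muscle, 0.675 for fibroblast, 0.238 for basal squamous and 0.27 for squamous differentiation genes. The mitochondrial median was -0.105 with the mean of probe sets. With the floor at the background level, medians were 0.24 for vesicles and endosomes, 1.43 for smooth muscle and 0.56 for striated muscle. With no floor they were -0.205 for striated muscle and 0.125 for fibroblast genes, and with the floor on both arrays 0.10 for fibroblast genes. Adding the members that share a probe set, also chosen after the data were seen, gave 0.06 for classical HSF1 targets. The cause of these moves was not tested. Signals near 3.84, as for Dnajc30 and Hspb7, cannot show the full size of a difference.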
